A study of Mus musculus with 27 samples.

Results

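Complex I, the NADH:ubiquinone oxidoreductase of the inner mitochondrial membrane, is described here through every gene of the deposited messenger RNA table whose symbol begins with Nduf. There are 42 such genes among 8987 listed genes. Of these, 36 encode subunits: 7 core subunits, 10 accessory subunits of the matrix arm and 19 accessory subunits of the membrane arm. A further 4 are assembly factors, Ndufaf1 to Ndufaf4. The remaining 2 are Ndufa4, whose protein has since been counted with complex IV, and its paralogue Ndufa4l2. Another 4 assembly factor genes are listed under older symbols, which the choice by name does not reach, and the subunits encoded in mitochondrial DNA are not analysed here.

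Complex I takes electrons from NADH at a flavin in its matrix arm, passes them along iron-sulphur clusters to ubiquinone, and pumps protons through its membrane arm. Core subunits carry out the reaction, accessory subunits surround and stabilise them, and assembly factors bind intermediates without remaining in the finished enzyme. Heart muscle is rich in mitochondria and draws most of its ATP from oxidative phosphorylation, which complex I feeds.

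The hearts came from FVB mice of 2 genotypes, either transgenic for caPI3Kalpha, a phosphoinositide 3-kinase (alpha isoform) that is always active, or wild type (WT). Adult animals had transverse aortic constriction (TAC), which loads the ventricle with pressure, or a sham operation, and the left ventricle was taken on day 7. Messenger RNA was sequenced from 3 WT TAC, 4 WT sham, 2 caPI3Kalpha TAC and 2 caPI3Kalpha sham hearts, each library from 1 animal named by its number. No label names the promoter of the transgene or the sex of the animals. Values are RPKM, read counts scaled to transcript length and library size.

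The transgene was visible in the table: Pik3ca had 110.5 and 101.3 RPKM in caPI3Kalpha TAC, 115.4 and 195.0 RPKM in caPI3Kalpha sham, 5.6 to 8.9 RPKM in WT TAC and 5.3 to 8.5 RPKM in WT sham. All 10 cardiomyocyte markers looked up were listed, and none was at 0 in any library. The first principal component of the whole table, which held 52% of the variance, split the libraries by its sign into 2 sets. The labels name no such sets. The first set held WT TAC 1, WT sham 6 and all 4 caPI3Kalpha libraries. The second set held WT TAC 17 and 19 and WT sham 7, 13 and 15. Outside the first set there was no caPI3Kalpha heart, so genotypes can be compared within a set only through 1 WT library of each operation. In caPI3Kalpha TAC 11 the summed RPKM of 3 atrial and 4 globin genes was 54.9 and 761.4, the highest of all libraries.

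In unstressed WT ventricle the subunit genes were among the abundant transcripts. In WT sham 34 of 36 subunits lay in the top 10% of listed genes by mean RPKM, and 26 had 100 RPKM or more, against a median of 6.62 RPKM over all genes. Ndufa4 was highest at 654 ± 64.6 RPKM (SD, n = 4). Below it came Ndufb9 and Ndufb8, subunits of the far end of the membrane arm, at 418 ± 9.88 and 375 ± 23.6 RPKM, then Ndufb10 at 347 ± 10.1 RPKM (SD, n = 4 each). Ndufb9 and Ndufb8 overlapped each other between hearts, as did Ndufb8 and Ndufb10, while Ndufa4 stood clear of both. Over the whole order 36 of 41 neighbours overlapped.

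Assembly factors and 2 subunits formed the low end. Ndufs5, a disulphide-bonded protein of the intermembrane space, had 10.7 ± 2.26 RPKM, and Ndufa11, a membrane-arm subunit, had 23.8 ± 9.48 RPKM (SD, n = 4 each). Ndufb9 was therefore 39.1-fold above Ndufs5, although both are subunits of the same enzyme. Ndufaf1, Ndufaf3 and Ndufaf2 averaged 18.2 ± 3.09, 9.32 ± 1.44 and 7.30 ± 0.594 RPKM, and Ndufa4l2 averaged 5.0 ± 2.0 RPKM (SD, n = 4 each). Ndufaf4 lay between 11.6 and 18.1 RPKM. RefSeq lists genes named as copies of 6 members: Ndufs5-ps, Ndufa11b, Ndufa12-ps, Ndufab1-ps, Ndufb4b, Ndufb4c and Ndufs6b. Whether these took reads from the members was not tested, and their likeness in sequence was not measured. The levels of Ndufs5, Ndufa11, Ndufa12, Ndufab1, Ndufb4 and Ndufs6 are therefore uncertain.

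**Figure D1:**
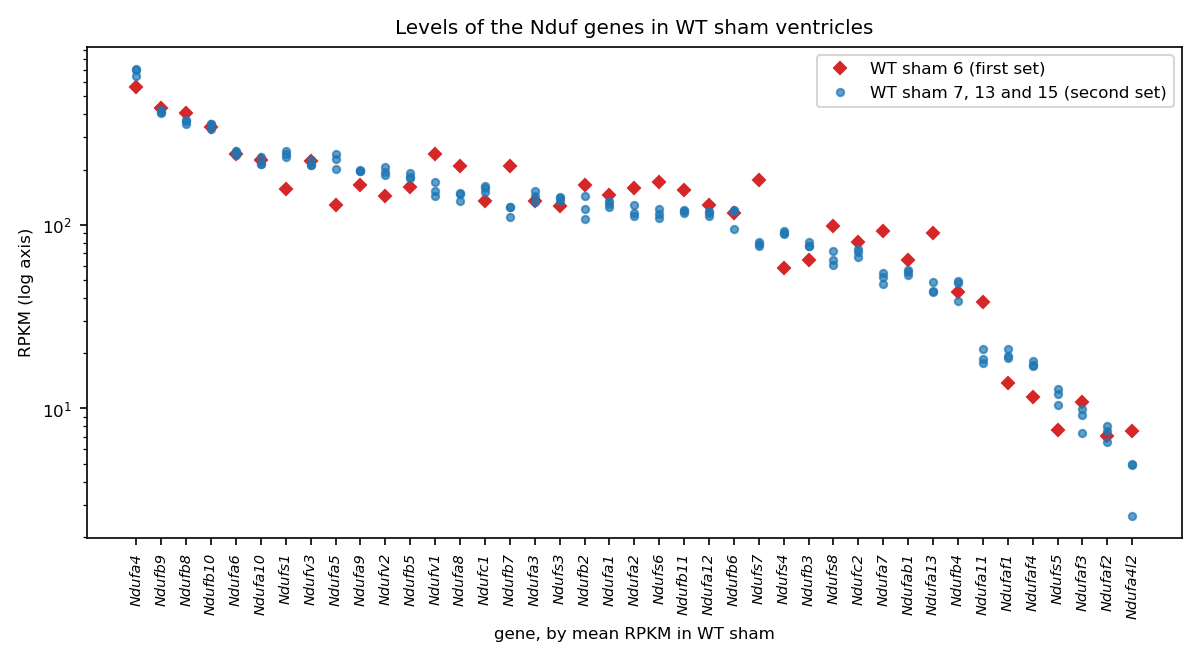
RPKM of 41 Nduf genes in the 4 WT sham libraries, on a log axis, with genes ordered by mean. Diamonds are WT sham 6, of the first library set, and circles are WT sham 7, 13 and 15, of the second; several genes, such as Ndufs7 at 175.4 RPKM in WT sham 6 and 77.0 to 80.5 RPKM in the others, differ more between sets than within one.

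The library set moved some Nduf genes by more than the operation did. Ndufs7, a core subunit at the ubiquinone site, had 175.4 RPKM in WT sham 6 against 78.2, 77.0 and 80.5 RPKM in WT sham 7, 13 and 15. The same gene had 117.1 RPKM in WT TAC 1 against 58.9 and 59.8 RPKM in WT TAC 17 and 19. Comparing first with second set, 37 of 42 members differed in the same direction in sham and in TAC hearts, and 11 by over 1.5-fold in both. Of those, Ndufs7, Ndufa13, Ndufb7, Ndufa7, Ndufa11 and Ndufa4l2 were higher in the first set, and Ndufa5, Ndufs4, Ndufs1, Ndufaf4 and Ndufs5 were lower. In sham hearts 21 members were higher in WT sham 6 than in any second-set WT sham library, where 37.2% of all genes were, and 13 were lower, where 41.8% were. Because the sets were drawn from the same table, these differences are descriptions. Results are therefore given from the model of 4 groups, from a model that adds a term for the set, and within each set. P-values from the model with the term depend on sets drawn from the values being tested.

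The first comparison was of pressure load in WT hearts. Complex I transcripts were lower after TAC: 39 of 42 members had a log2 change below 0, with a median of -0.28, in a table whose overall median was 0.17. In the model of 4 groups 6 members fell and 0 rose (limma, Benjamini-Hochberg adjusted p under 0.05), while 2.85% of all genes fell and 13.6% rose. Among them were the core subunit Ndufs3, the matrix-arm subunits Ndufv3 and Ndufa6, and the membrane-arm subunits Ndufb10 and Ndufa3. With the set term 31 of 42 fell and 0 rose, the earlier 6 among them, while 9.01% of all genes fell and 33.1% rose. The median of the members was then -0.29, and 41 of 42 had a change below 0. Leaving out 1 library moved the count of 6 to 3 without WT TAC 17 or without WT sham 15, where 1.35% and 1.61% of all genes fell, and to 12 without WT sham 6, where 4.38% fell. The count of 31 moved to between 25 and 31. Scaling mattered for the split over all genes: 256 fell and 1225 rose as deposited, 439 fell and 486 rose after quantile normalization, and 610 fell and 561 rose after centring on library medians. The members called were all falls under these scalings, 6 after quantile normalization, of which 4 were among the first 6, and 19 after centring.

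Summed over the 36 subunits, RPKM was 4513.6, 4486.1 and 4465.7 in WT TAC 1, 17 and 19, against 5853.5, 5439.8, 5334.7 and 5553.9 in WT sham 6, 7, 13 and 15. No WT TAC library reached the lowest WT sham library. Cardiomyocyte marker sums were also lower in WT TAC, while fibroblast, macrophage and endothelial marker sums were higher. Cardiomyocyte markers summed to between 16777.7 and 17662.3 RPKM in WT TAC and between 20618.7 and 21405.3 RPKM in WT sham, and 1 of 10 fell (Myh6) while 1 rose (Ttn), or 5 and 1 with the set term. Fibroblast markers summed to between 692.9 and 758.9 RPKM in WT TAC and between 304.2 and 408.2 RPKM in WT sham, with 5 of 8 higher. Macrophage markers summed to between 261.0 and 310.8 RPKM in WT TAC and between 115.3 and 134.8 RPKM in WT sham, with 9 of 9 higher. Endothelial markers summed to between 203.6 and 213.6 RPKM in WT TAC and between 180.2 and 186.3 RPKM in WT sham, with 1 of 8 higher. Smooth muscle and pericyte markers overlapped, at 112.6 to 144.0 RPKM in WT TAC and 97.7 to 131.5 RPKM in WT sham, with 1 of 4 higher. Beside these counts, 2.85% of all genes fell and 13.6% rose in the model of 4 groups, so the endothelial count is near that share. For the set term, used here for cardiomyocyte markers only, 9.01% of all genes fell and 33.1% rose. The subunit sum was 25.4% to 26.6% of the cardiomyocyte marker sum in WT TAC and 25.6% to 28.3% in WT sham, ranges that overlap. On the log2 scale, where each gene counts equally, the mean over subunits minus the mean over these markers was -3.22, -3.30 and -3.25 in WT TAC 1, 17 and 19, against -3.05, -3.19, -3.17 and -3.18 in WT sham 6, 7, 13 and 15. By that measure every WT TAC library lay below every WT sham library, by a small margin. The nearest, WT TAC 1 at -3.22 and WT sham 7 at -3.19, are of different sets. The marker mean includes Ttn, which rose, and Myh6, which fell. The part of cell composition in the complex I result was not tested, and in whole ventricle fewer cardiomyocytes and less RNA per cardiomyocyte cannot be told apart.

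**Figure D2:**
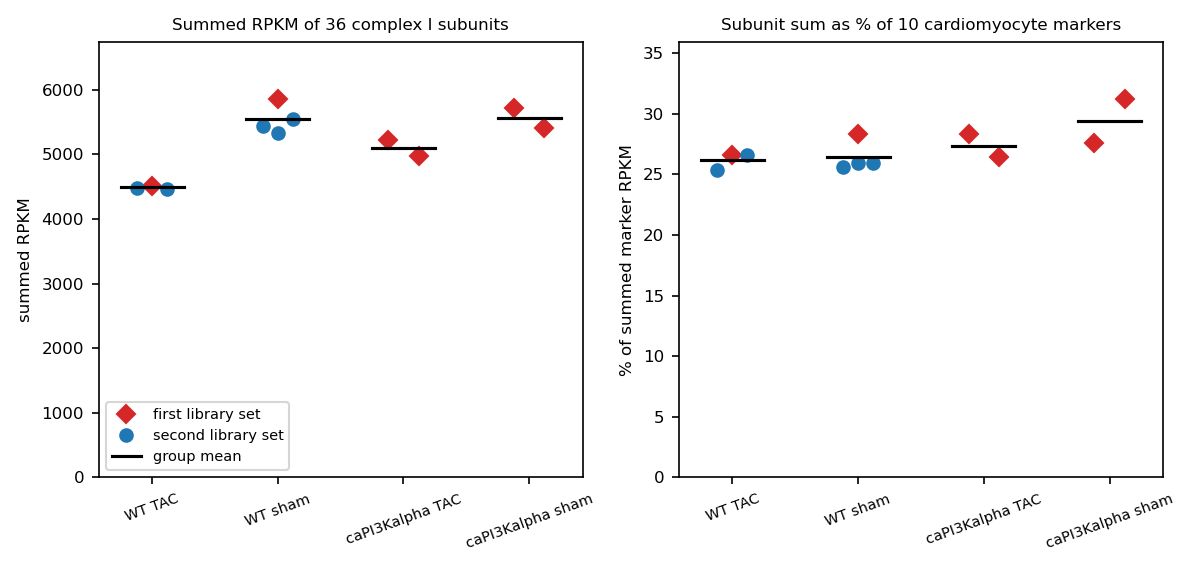
Left, summed RPKM of the 36 complex I subunits in each library; right, the same sum as a percentage of the summed RPKM of 10 cardiomyocyte markers. Diamonds are first-set and circles second-set libraries, bars are group means, and both axes start at 0; the WT TAC sums of 4465.7 to 4513.6 RPKM lie below all WT sham sums, while the percentages of WT TAC and WT sham overlap. The mean log2 difference between the same genes, not drawn, did not overlap, by a small margin, at -3.30 to -3.22 in WT TAC and -3.19 to -3.05 in WT sham.

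The core subunits described here had log2 changes below 0. Ndufs3, a core subunit of the ubiquinone module that enters assembly early, had 94.8, 101.0 and 106.8 RPKM in WT TAC 1, 17 and 19, against 127.0, 141.5, 134.3 and 139.4 RPKM in WT sham 6, 7, 13 and 15. The groups did not overlap. Ndufs3 fell by 0.43 on the log2 scale (SE 0.09, limma adjusted p = 0.0123). In the model of 4 groups Ndufs1, Ndufs7, Ndufs8, Ndufv1 and Ndufv2 did not pass, with adjusted p between 0.144 (Ndufs8) and 0.536 (Ndufv1).

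These genes were spread by the library set. Ndufs1, the largest subunit of the matrix arm and a carrier of iron-sulphur clusters, had 122.7, 197.6 and 201.7 RPKM in WT TAC 1, 17 and 19, against 157.3, 232.8, 242.8 and 251.7 RPKM in WT sham 6, 7, 13 and 15. The groups overlapped over all libraries, since WT sham 6 lay below WT TAC 17 and 19, but within each set every WT TAC library lay below every WT sham library. Ndufs8, another iron-sulphur subunit, had 65.5, 51.6 and 50.9 RPKM in WT TAC, against 98.0, 72.0, 64.0 and 60.3 RPKM in WT sham. Ndufv2, which carries an iron-sulphur cluster beside the flavin, had 114.9, 161.6 and 159.9 RPKM in WT TAC, against 144.0, 206.5, 187.9 and 193.9 RPKM in WT sham. For both, the WT TAC values were lower within each set. Ndufv1, which binds the flavin and oxidises NADH, had 184.3, 147.8 and 133.9 RPKM in WT TAC, against 243.3, 144.0, 153.0 and 170.4 RPKM in WT sham, and in the second set WT TAC 17 lay above WT sham 7.

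With the set term each of these core subunits fell. Ndufs7 changed by -0.45 (SE 0.06, limma adjusted p = 0.000194) on the log2 scale, Ndufs3 by -0.41 (SE 0.06), Ndufs8 by -0.41 (SE 0.08), Ndufs1 by -0.30 (SE 0.05), Ndufv2 by -0.30 (SE 0.08) and Ndufv1 by -0.22 (SE 0.08, adjusted p = 0.0423). As linear values Ndufs7 fell by 27.0% and Ndufv1 fell by 14.1%. For Ndufs7 the standard error was 0.31 without the term, against 0.06 with it. Since the sets were drawn from these same values, a smaller error for a gene split by set follows from the term itself.

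Accessory subunits of the matrix arm followed. Ndufv3, next to the flavin subunits, had 160.2, 146.0 and 158.5 RPKM in WT TAC 1, 17 and 19, against 223.3, 226.7, 212.0 and 210.9 RPKM in WT sham 6, 7, 13 and 15. Ndufa6, a LYR-motif protein that holds a mitochondrial acyl carrier protein on the arm, had 191.8, 195.7 and 183.2 RPKM in WT TAC, against 241.6, 250.8, 248.4 and 239.6 RPKM in WT sham. Neither gene overlapped between the groups, and first-set over second-set ratios stayed near 1, at 1.05 and 1.03 for Ndufv3 in TAC and sham and 1.01 and 0.981 for Ndufa6. Ndufv3 fell by 29.0% (log2 -0.49, SE 0.09, limma adjusted p = 0.00368) and Ndufa6 by 22.4% (log2 -0.37, SE 0.09, adjusted p = 0.0238). When 1 library was left out in turn, the call held in 11 of 11 fits for Ndufv3 and in 6 of 11 for Ndufa6. Of the 10 genes in this group 2 fell without the set term and 10 with it, with changes between -0.50 and -0.25 and a median of -0.35. They include Ndufs4 (-0.38, SE 0.06, adjusted p = 0.000586) and Ndufs6 (-0.45, SE 0.06, adjusted p = 0.00018), both needed to join the NADH-oxidising module in late assembly, and Ndufab1, the acyl carrier protein (-0.34, SE 0.06, adjusted p = 0.00158).

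In the membrane arm the falls were less uniform. Ndufb10, a disulphide-bonded subunit on the intermembrane face, had 247.5, 240.5 and 257.4 RPKM in WT TAC 1, 17 and 19, against 342.6, 354.3, 334.1 and 355.3 RPKM in WT sham 6, 7, 13 and 15. Ndufa3, a small single-pass subunit, had 98.7, 112.2 and 121.3 RPKM in WT TAC, against 135.2, 133.1, 142.8 and 153.7 RPKM in WT sham. The groups did not overlap for either. Ndufb10 fell by 28.3% (log2 -0.48, SE 0.08, limma adjusted p = 0.00334), the smallest p among the members, and Ndufa3 fell by 21.7% (log2 -0.35, SE 0.10, adjusted p = 0.041). The call of Ndufb10 held in all 11 fits that left out 1 library, and that of Ndufa3 in 2 of 11.

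Of the 19 membrane-arm genes 2 fell without the set term and 12 with it, with a median of -0.26. The 7 that did not pass with the term were Ndufb2, Ndufb6, Ndufb11, Ndufa13, Ndufc1, Ndufb3 and Ndufa11, with log2 changes between -0.27 (SE 0.12) for Ndufb2 and -0.04 (SE 0.08) for Ndufa11. Ndufb2 changed unequally in the sets: 104.2 RPKM in WT TAC 1 against 164.7 RPKM in WT sham 6, and 113.5 and 115.2 RPKM in WT TAC 17 and 19 against 107.9, 122.1 and 143.0 RPKM in WT sham 7, 13 and 15. Ndufb3, a small subunit of the far end of the arm, was lower in WT TAC 1 at 50.7 RPKM than in WT sham 6 at 64.1 RPKM. In the second set it had 83.5 and 77.7 RPKM in WT TAC 17 and 19 and 76.8, 80.9 and 76.4 RPKM in WT sham 7, 13 and 15, where the groups overlapped.

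Assembly factors and the Ndufa4 pair differed among themselves. Ndufaf1, which acts in assembly of the membrane arm, had 10.2, 15.5 and 14.7 RPKM in WT TAC 1, 17 and 19, against 13.8, 21.0, 19.2 and 18.8 RPKM in WT sham 6, 7, 13 and 15, lower within each set. It fell with the set term (log2 -0.38, SE 0.08, limma adjusted p = 0.00226) and did not pass without it (adjusted p = 0.117). Ndufaf3 and Ndufaf4, partners in building the ubiquinone module, changed by -0.24 (SE 0.12) and -0.12 (SE 0.08) with the set term and did not pass. Ndufaf2, a paralogue of Ndufa12 that holds its place during assembly, had 8.1, 8.7 and 6.2 RPKM in WT TAC against 7.1, 7.5, 6.6 and 8.0 RPKM in WT sham (log2 0.05, SE 0.12, adjusted p = 0.756).

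Ndufa4 had 448.1, 611.4 and 630.1 RPKM in WT TAC 1, 17 and 19, against 564.7, 702.4, 646.8 and 700.2 RPKM in WT sham 6, 7, 13 and 15. It was lower within each set and fell with the set term (log2 -0.19, SE 0.06, limma adjusted p = 0.0253). Ndufa4l2, a paralogue known as a target of hypoxia signalling, had 11.4, 4.3 and 2.5 RPKM in WT TAC against 7.5, 5.0, 2.6 and 4.9 RPKM in WT sham. It was higher in WT TAC 1 than in WT sham 6 and overlapped in the second set, and its log2 change of -0.01 with the set term had an SE of 0.24. Without the term it was the member furthest above 0, at 0.09 (SE 0.41).

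The order of libraries was also counted, without a model. WT TAC lay below WT sham over all libraries for 12 of 42 members, where 4.65% of all genes did so. Among these were Ndufs3, Ndufv3, Ndufa6, Ndufa12, Ndufa1, Ndufa3, Ndufa10, Ndufb8, Ndufb9, Ndufb10 and Ndufc2. Within both sets WT TAC lay below WT sham for 28 members, where 10.9% of all genes did so. In the first set, with 1 library a side, this held for 40 members, where 31.8% of all genes did so, and in the second set for 28, where 12.4% of all genes did so. For 0 members did WT TAC lie above WT sham within both sets, where 40.5% of all genes did so. Tested in the second set alone, 25 members fell, where 6.69% of all genes fell. The first set alone, with 1 WT heart a side, has too few hearts for such a count to be read.

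**Figure D3:**
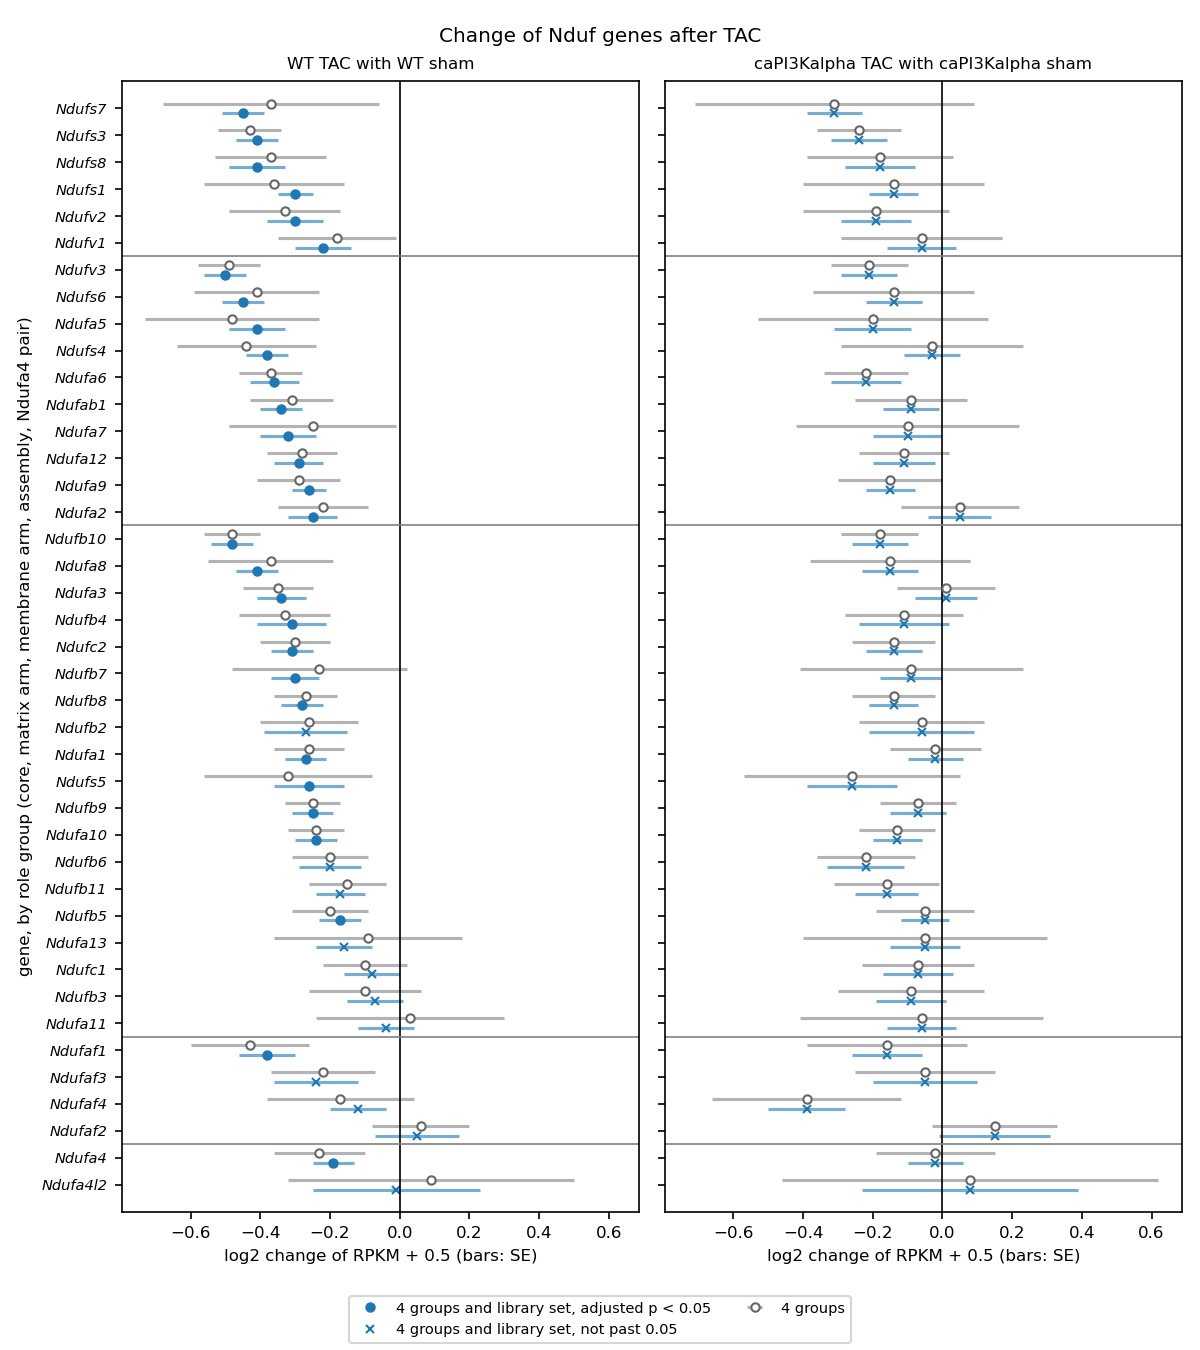
Log2 change of RPKM + 0.5 with its standard error for 41 Nduf genes, WT TAC with WT sham on the left and caPI3Kalpha TAC with caPI3Kalpha sham on the right, genes grouped by role. Open circles are the model of 4 groups, and blue symbols the model with the library set, filled where the adjusted p was under 0.05; on the left 30 symbols are filled, all below 0, and on the right 0 are.

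The promoters of the 4 called members with the smallest adjusted p that have a usable window are shown for reference, since these genes fell together. They are the 100 bases before the annotated start in RefSeq (GRCm38.p6), read 5′ to 3′ along the gene's strand. Capitals mark the motifs searched on both strands: GCATGCGC, which NRF1 binds, AAGGTCA, bound by oestrogen-related receptors, CCGGAAG, bound by ETS factors such as GABP, and ATGGCGG, bound by YY1.
Ndufb10, chr17:24724424-24724523, minus strand: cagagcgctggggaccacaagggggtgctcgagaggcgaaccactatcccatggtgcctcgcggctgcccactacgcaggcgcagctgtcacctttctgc
Ndufv3, chr17:31520015-31520114, plus strand: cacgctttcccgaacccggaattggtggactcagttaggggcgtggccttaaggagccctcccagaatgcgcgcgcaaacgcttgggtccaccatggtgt
Ndufs3, chr2:90904722-90904821, minus strand: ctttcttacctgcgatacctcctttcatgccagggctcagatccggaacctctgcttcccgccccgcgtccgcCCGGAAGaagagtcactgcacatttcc
Ndufa6, chr15:82354292-82354391, minus strand: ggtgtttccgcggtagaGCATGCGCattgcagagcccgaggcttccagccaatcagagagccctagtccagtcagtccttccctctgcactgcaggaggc

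The Ndufs3 window holds the ETS motif and the Ndufa6 window the NRF1 motif; these letters are in neither of the other windows. In windows running from 250 bases before to 50 bases after the start, available for 37 members and 6445 listed genes, NRF1 letters were in 10.8% of members and 6.42% of listed genes. The ERR letters were in 8.11% of members and 3.94% of listed genes, the ETS letters in 13.5% and 21.0%, and the YY1 letters in 21.6% and 10.6%. Such matches describe letters in a window and not binding.

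Other genes of the respiratory chain and its upkeep were counted in the same comparison of WT TAC with WT sham, with no test of the lists, where 2.85% of all genes fell without the set term and 9.01% with it. Of 43 genes of complexes II to V 9 fell without the set term and 32 with it, with medians of -0.27 and -0.28. With the term 4 of 4 fell in complex II, 7 of 9 in complex III, 9 of 15 in complex IV and 12 of 15 in complex V, among them Atp5a1 of the ATP synthase (-0.41, SE 0.05, limma adjusted p = 0.000115). Of 76 mitochondrial ribosome genes 1 fell without the term, and 27 fell with it, beside the same shares of all genes. Of 9 further complex I assembly or import genes without the Nduf prefix, Aifm1 alone fell without the term (-0.42, SE 0.11, adjusted p = 0.03), and 3 fell with it. Of 11 regulators of mitochondrial genes 0 passed without the term, among them Ppargc1a (-0.35, SE 0.13, adjusted p = 0.0838), and with it 2 fell and 2 rose, Tfb2m at -0.33 (SE 0.08) and Yy1 at 0.38 (SE 0.10) being examples.

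The second comparison was of the same load in caPI3Kalpha hearts. Complex I transcripts were mostly lower after TAC, with a smaller median change than in WT: 38 of 42 members had a log2 change below 0, with a median of -0.12, while the median over all genes was 0.01. No member passed, in a comparison where 0.0% of all genes passed in the model of 4 groups and 1.03% with the set term (limma). At an unadjusted p under 0.05 there were 0 members without the set term, where 5.05% of all genes passed that limit, and 6 with it, where 13.6% did. Group sizes of 2 hearts each limit this comparison.

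Summed over the 36 subunits, RPKM was 5228.4 and 4976.6 in caPI3Kalpha TAC 11 and 211, against 5722.2 and 5414.3 in caPI3Kalpha sham 5 and 8. The groups did not overlap, and the gap between them was smaller than in WT. Cardiomyocyte markers summed to 18490.1 and 18876.5 RPKM in caPI3Kalpha TAC and to 17344.6 and 20735.5 RPKM in caPI3Kalpha sham. The subunit sum was 28.3% and 26.4% of that sum in caPI3Kalpha TAC 11 and 211, against 27.6% and 31.2% in caPI3Kalpha sham 5 and 8. The mean log2 difference between subunits and markers was -3.03 and -3.08, against -3.08 and -3.01. By both of these measures the groups overlapped. Fibroblast markers summed to between 382.5 and 412.1 RPKM in caPI3Kalpha TAC and between 288.4 and 325.8 RPKM in caPI3Kalpha sham, and macrophage markers to between 116.2 and 135.6 RPKM and between 106.1 and 166.4 RPKM. Their part in the result was not tested.

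With the set term the smallest p in caPI3Kalpha belonged to the core subunits Ndufs7 and Ndufs3 and the assembly factor Ndufaf4. Ndufs7 had 128.2 and 133.0 RPKM in caPI3Kalpha TAC 11 and 211, against 167.2 and 156.5 RPKM in caPI3Kalpha sham 5 and 8 (log2 -0.31, SE 0.08, limma adjusted p = 0.0795 with the set term). Ndufs3 had 107.8 and 99.0 RPKM in caPI3Kalpha TAC, against 129.6 and 115.4 RPKM in caPI3Kalpha sham (log2 -0.24, SE 0.08, adjusted p = 0.189). Ndufaf4 had 9.8 and 8.6 RPKM in caPI3Kalpha TAC, against 13.3 and 11.2 RPKM in caPI3Kalpha sham (log2 -0.39, SE 0.11, adjusted p = 0.116). None of these overlapped between the groups. In all, 21 of 42 members had both caPI3Kalpha TAC libraries below both caPI3Kalpha sham libraries, where 20.0% of all genes did so. The opposite order, not counted over all genes, held for 1 member, Ndufa2. It had 165.5 and 159.4 RPKM in caPI3Kalpha TAC against 156.7 and 157.3 RPKM in caPI3Kalpha sham. Ndufaf2 was the member furthest above 0, with 9.5 and 7.4 RPKM in caPI3Kalpha TAC against 7.6 and 7.4 RPKM in caPI3Kalpha sham (log2 0.15, SE 0.18).

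The interaction asks whether the load effect differed between genotypes. No member passed this test, with a smallest adjusted p of 0.474 without and 0.0557 with the set term (limma), where 0.312% and 6.75% of all genes passed. Without the term those were 28 genes below 0 and 0 above, or 15 and 3 after quantile normalization. At an unadjusted p under 0.05 there was 1 member without the term, where 10.3% of all genes passed that limit, and 10 with it, where 25.0% did. Median differences in log2 change were 0.16 without and 0.17 with the set term, and 37 and 38 of 42 members had a smaller fall, or a rise, in caPI3Kalpha hearts, against 30.3% and 30.5% of all genes with a positive value. The smallest p with the term belonged to Ndufs4. It had 57.0 and 52.2 RPKM in caPI3Kalpha TAC against 58.0 and 53.7 RPKM in caPI3Kalpha sham, a change of -0.03 (SE 0.08), and changed by -0.38 (SE 0.06) in WT, a difference of 0.35 (SE 0.10). Ndufb10 changed by -0.18 (SE 0.08) in caPI3Kalpha and by -0.48 (SE 0.06) in WT, a difference of 0.30 (SE 0.09, adjusted p = 0.0798). Ndufaf4 was furthest the other way, at -0.27 (SE 0.14, adjusted p = 0.243).

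**Figure D4:**
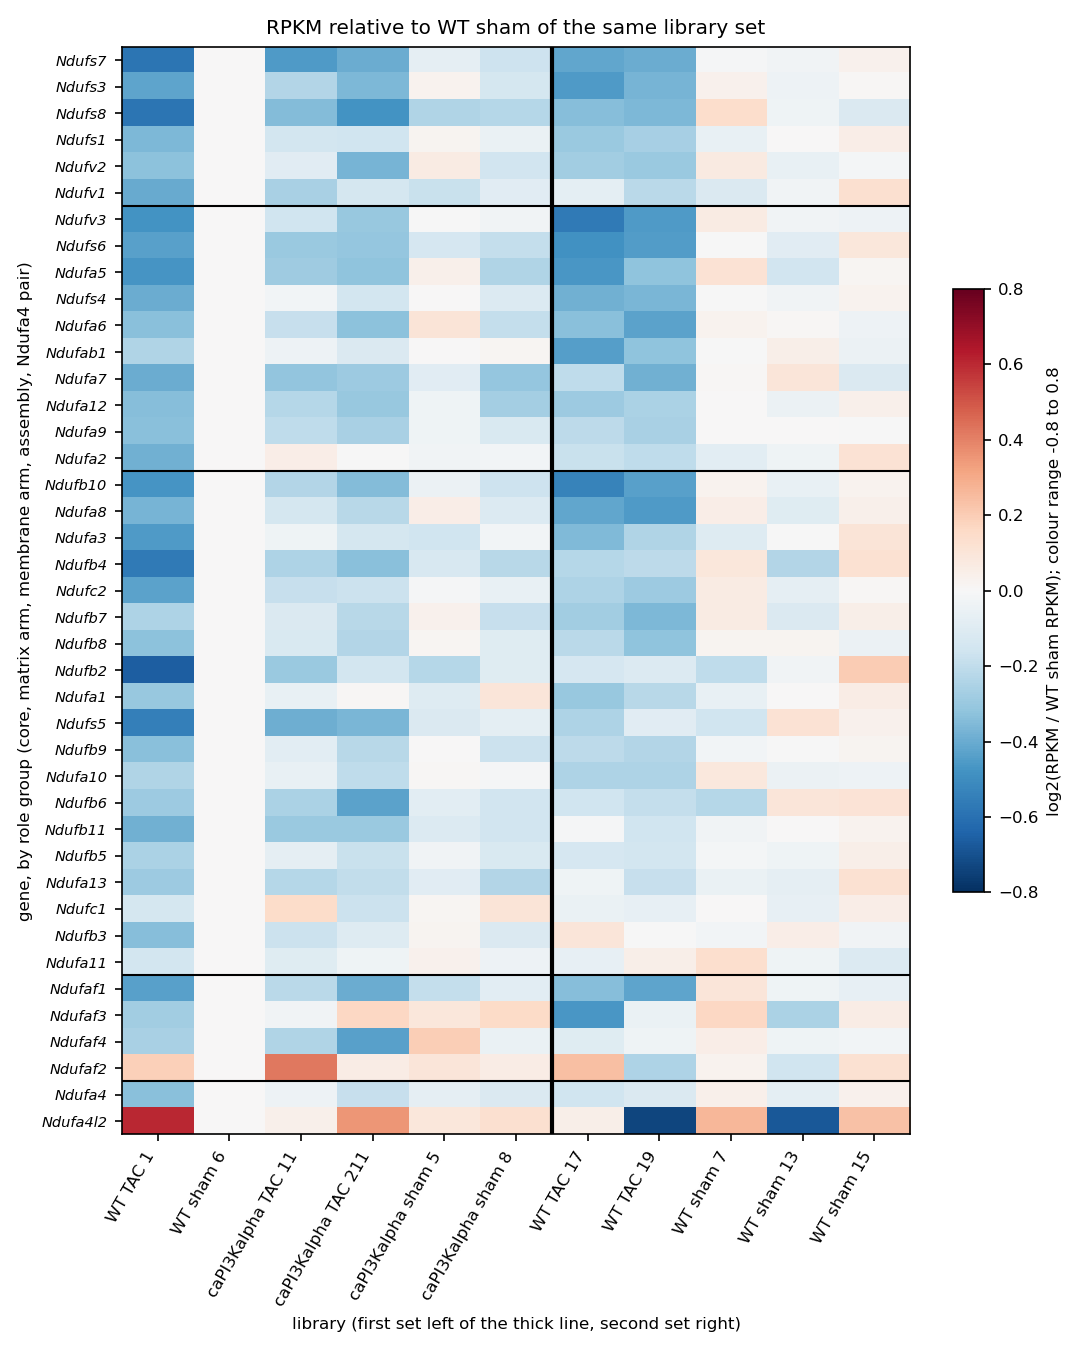
Log2 ratio of each library's RPKM to WT sham of its own library set, for 41 Nduf genes by role (WT sham 6 in the first set, the mean of WT sham 7, 13 and 15 in the second). Blue is lower and red is higher; the WT TAC columns are blue for most genes in both sets, and the caPI3Kalpha TAC columns are paler, with Ndufs4 at 57.0 and 52.2 RPKM against 57.9 RPKM in WT sham 6.

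Under load, the genotypes were compared directly. No member passed in the model of 4 groups, where 6.52% of all genes did (limma). Over all genes 519 were lower and 67 higher in caPI3Kalpha TAC, against 143 and 72 after quantile normalization and 139 and 130 after centring, when 3 members were higher. Leaving out WT TAC 1, the only WT TAC heart of the first set, gave 18 members called, 14 higher and 4 lower, where 36.4% of all genes were called. Of all genes called in that fit, 745 were higher and 2524 lower. Leaving out WT sham 6 gave 7, all higher, where 21.3% of all genes were called, 340 higher and 1572 lower. With the set term Ndufa2 and Ndufs4 were higher in caPI3Kalpha TAC than in WT TAC, where 1.26% of all genes were higher. Ndufa2, a subunit of thioredoxin-like fold in the matrix arm, had 165.5 and 159.4 RPKM in caPI3Kalpha TAC 11 and 211, against 122.0 RPKM in WT TAC 1 of the same set and 105.0 and 103.3 RPKM in WT TAC 17 and 19. Both caPI3Kalpha TAC libraries lay above all WT TAC libraries (log2 0.34, SE 0.09, adjusted p = 0.0407 with the set term; 0.56, SE 0.15, adjusted p = 0.0514 without it). Ndufs4 lay above WT TAC 1, at 43.9 RPKM, and below WT TAC 17 and 19, at 69.3 and 70.2 RPKM. Its difference was 0.30 (SE 0.08, adjusted p = 0.0436) with the set term and -0.13 (SE 0.24) without it.

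Within the first set 36 of 42 members were higher in both caPI3Kalpha TAC libraries than in WT TAC 1, where 22.3% of all genes were. For 33 members both caPI3Kalpha TAC libraries lay above WT TAC 1 and below WT sham 6, where 7.09% of all genes did so. The opposite order, above WT sham 6 and below WT TAC 1, held for 1 member, Ndufa4l2, where 19.0% of all genes did so. Each bound of that interval is 1 heart. Of all genes called with the set term, 113 were higher and 696 lower in caPI3Kalpha TAC than in WT TAC. The median difference of the members with that term was 0.11, with 38 of 42 above 0. Ndufv3 is an example, with 200.2 and 180.9 RPKM in caPI3Kalpha TAC, 160.2 RPKM in WT TAC 1 and 223.3 RPKM in WT sham 6.

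Without load, the differences of the members between caPI3Kalpha sham and WT sham lay between -0.23 and 0.12 on the log2 scale when fitted in the first set alone. No member passed between caPI3Kalpha sham and WT sham (limma), where 0.0111% of all genes passed with and without the set term, the gene being Pik3ca. At an unadjusted p under 0.05 there were 4 members without the term, where 13.3% of all genes passed that limit, and 0 with it, where 1.54% did. Without WT sham 6 the count of members called was 11, 7 higher and 4 lower, where 20.3% of all genes were called, with genotype and set then the same division. Of all genes called in that fit, 1041 were higher and 783 lower. The median difference was 0.02 without the term, with members between -0.70 (Ndufa5) and 0.75 (Ndufs7), and -0.04 with it, with members between -0.19 and 0.13. Ndufs7 had 167.2 and 156.5 RPKM in caPI3Kalpha sham 5 and 8, against 175.4 RPKM in WT sham 6 of the same set and 77.0 to 80.5 RPKM in the second set. Ndufa5, a matrix-arm subunit, had 131.8 and 108.4 RPKM in caPI3Kalpha sham, against 128.1 RPKM in WT sham 6 and 202.3 to 243.7 RPKM in the second set. The large differences of both genes thus lay between library sets, and genotype cannot be told apart from set in those libraries. Both caPI3Kalpha sham libraries lay below WT sham 6 for 22 members, where 28.2% of all genes did so.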

How the data were processed

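RPKM values were deposited by the authors, to 1 decimal, for poly-A selected single-end libraries per the labels; the submitters' processing notes name CASAVA 1.6, Bowtie, Partek 6.5 and mm9 with no role, and mapping settings were not found in the labels. Each listed gene reaches at least 3 RPKM in some library. Of 9251 lines, 261 blank lines, 1 error line and 2 repeats were left out. Listed RPKM summed to between 202916.4 and 212396.3 per library; depth is unknown. For WT sham 15 the source name gives another number, and the title was used. Small RNA libraries were not used.

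All 8987 genes were fitted with limma 3.58.1 in R 4.3.3 (lmFit, eBayes with trend) on log2(RPKM + 0.5), in 1 model of 4 groups, two-sided, with Benjamini-Hochberg adjustment over all genes; 0 genes had a mean under 1 RPKM, the planned filter. Changes of low genes are understated on this scale. In the model of 4 groups the p-values measure the spread between hearts of a group, pooled over the groups. For WT groups that spread includes the difference between library sets, while both caPI3Kalpha groups lie within the first set. With the set term the p-values measure the spread left after a division drawn from these same RPKM values. Alternatives were a library set term, each set alone, pseudocounts of 0.1 and 1, a filter at 5 RPKM, quantile normalization, median centring, no trend, compared groups alone and leaving out each library. Counts cover all 42 members; the values of 1 member are not reported here. Genes with full statistics were the core subunits, members past the threshold, the 5 highest and 5 lowest in WT sham, the member furthest against the median in each comparison, Ndufa4 and Ndufa4l2; others were named after their values were seen. Members, role groups, marker lists and other lists were chosen with earlier results of these data known. The script was tested on simulated data, for WT TAC with WT sham in the model of 4 groups only. It recovered 77 of 100 planted 2-fold changes and 100 of 100 planted 4-fold changes, with 8 unchanged genes called. Library sets, the set term and smaller changes were not simulated. Promoters and names came from RefSeq, which matched 42 of 42 members.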

Additional observations from a re-analysis of the deposited data

Results flagged for a closer look

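In WT sham, the only group with 4 libraries, 9 of 42 members had 1 heart far from the others by the ratio of its gap to the group's range, past Dixon's 95% critical value, which chance passes in about 1 in 20 groups. That heart was WT sham 6 in each case, the only WT sham library of the first set. Over all genes WT sham 6 lay above the other WT sham libraries for 37.2% and below them for 41.8%. The share of all genes past the Dixon limit was not counted, so the 9 are not shown to be particular to the members. It was highest for Ndufs7 (0.964), Ndufb11 (0.885), Ndufa13 (0.87), Ndufb7 (0.848), Ndufa11 (0.837) and Ndufa7 (0.837), and lowest for Ndufa9 (0.972), Ndufs4 (0.893) and Ndufaf4 (0.831). For Ndufa9 it had 165.4 RPKM, against 197.5, 197.8 and 196.9 RPKM in WT sham 7, 13 and 15. For Ndufb11 it had 155.3 RPKM, against 116.3, 118.7 and 120.8 RPKM. The part of the library set in these gaps was not tested.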

How the results depend on the processing

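For WT TAC with WT sham the count of Nduf genes called was 6 in the model of 4 groups. It was 19 with libraries centred on their medians, which moved the median of all genes to -0.02 against 0.17. It was 31 with the set term, 0 in the first set alone and 25 in the second set alone. It was 33 with set term and quantile normalization and 40 with set term and centring, 2 combinations added after the data were seen. Leaving out each library gave 3 to 12, lowest without WT TAC 17 or WT sham 15 and highest without WT sham 6; with the set term it gave 25 to 31. Ndufb10, Ndufs3 and Ndufv3 were called in all 11 of these, Ndufa6 in 6 and Ndufa3 in 2. All calls in this comparison were falls. Over all genes 1481 were called: 925 after quantile normalization, 862 above 5 RPKM, 3785 with the set term, 44 and 2836 in the first and second set, 890 from the compared groups alone, 2872 and 3028 with set term and quantile normalization or centring, and 729 to 1994 leaving out libraries.

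In caPI3Kalpha TAC with caPI3Kalpha sham 1 Nduf gene was called with set term and quantile normalization and 0 otherwise; over all genes 0 were called, 93 with the set term, 123 and 104 when quantile normalization or centring was added, and 0 to 2 leaving out libraries. In caPI3Kalpha sham with WT sham 0 to 11 Nduf genes and 1 to 1824 genes in all were called leaving out libraries, the highest without WT sham 6, which leaves WT sham in the second set and caPI3Kalpha sham in the first; 0 genes were called in the first set alone.

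In caPI3Kalpha TAC with WT TAC 0 Nduf genes were called, 3 after centring, 2 with the set term, 2 and 11 when quantile normalization or centring was added, and 0 to 18 leaving out libraries, 18 without WT TAC 1 and 7 without WT sham 6. Over all genes 586 were called, 215 after quantile normalization, 269 after centring, 295 above 5 RPKM, 1 in the first set, 79 from the compared groups alone, and 23 to 3269 leaving out libraries, lowest without caPI3Kalpha TAC 11. In the interaction 8 Nduf genes were called with set term and centring and 0 otherwise. Over all genes 28 were called, 18 after quantile normalization, 12 after centring, 18 above 5 RPKM, 607 with the set term, 0 in the first set, 270 and 384 when quantile normalization or centring was added to the term, and 3 to 66 leaving out libraries.

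Sign changes of a called value were few: in WT TAC with WT sham Ndufa11 was -0.234 with set term and centring, and in caPI3Kalpha TAC with WT TAC Ndufs4 was 0.303 with the set term, 0.351 with quantile normalization added and 0.464 with centring added, and Ndufs1 was 0.336 with set term and centring. Of 5040 recomputed gene values 273 changed sign, 188 became called and 28 were no longer called. The causes were not tested. Tests within the first set rest on 1 WT heart a side. No paired analysis was possible because the groups compared share no animal numbers. With depth unknown, counting error cannot be set beside these values.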
